A study of Mus musculus with 12 samples.

Results

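The genes described here are 9 that encode proteins secreted by liver or acting on them, namely the activin beta subunits Inhbe, Inhbc, and Inhba, the activin-binding protein Fst, the hormones Fgf21 and Gdf15, and the secreted proteins Lect2, Fetub, and Ahsg. They are 9 of the 22456 genes in the deposited expression table, they were matched by symbol, and all 9 were among the 11507 genes that averaged 0.5 RPKM or more (RPKM is the read number scaled to transcript length and to the reads mapped in that library). They were selected on their RPKM in these 4 groups, so their levels and differences are given as a description, without p-values. RNA-Seq had been done on liver from male mice of the BALB/cByJ strain aged 2 to 8 months, in 4 groups of 3 libraries: fasted Lpin1+/+ mice, fasted Lpin1-/- mice, refed Lpin1+/+ mice, and refed Lpin1-/- mice. Lpin1-/- mice carried the fld mutation of Lpin1 in all tissues, and Lpin1+/+ mice were their wild-type littermates. All mice were fasted singly housed for 16 hours, and the refed groups then had food for 5 hours, so feeding state and time of day cannot be told apart. Lpin1 encodes lipin 1, a phosphatidate phosphatase that also coactivates transcription with PPARalpha and PGC-1alpha.

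Activins are dimers of inhibin beta subunits and belong to the TGF-beta family. They bind type II receptors (Acvr2a, Acvr2b), which recruit type I receptors (Acvr1b, Acvr1c) that phosphorylate Smad proteins, and follistatin, encoded by Fst, binds activins and keeps them from their receptors. Inhbe and Inhbc encode the beta E and beta C subunits, which are made mainly by hepatocytes, whereas Inhba encodes the beta A subunit made in many tissues. FGF21 is a fasting hormone of the liver that signals through FGFR1 with the coreceptor beta-Klotho (Klb), and its gene is a known target of PPARalpha, CREBH, ATF4, and ChREBP. GDF15 is a distant TGF-beta relative induced in cell stress, which acts on the hindbrain receptor GFRAL. LECT2 is a leukocyte chemotactic protein, and fetuin B (Fetub) and fetuin A (Ahsg) are abundant plasma proteins of the cystatin superfamily.

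Gene positions follow the GENCODE M21 annotation of GRCm38. Inhbe (ENSMUSG00000047492.5) lies on the minus strand of chromosome 10 from 127348857 to 127354411, and Inhbc (ENSMUSG00000025405.9) lies on the same strand from 127356322 to 127370431, with 1911 bp between them. Fetub (ENSMUSG00000022871.13, chromosome 16, 22918334 to 22939778) and Ahsg (ENSMUSG00000022868.6, chromosome 16, 22891277 to 22899449) are also neighbors, 18885 bp apart on the plus strand. Fgf21 (ENSMUSG00000030827.5) lies on chromosome 7 from 45613886 to 45615490, Gdf15 (ENSMUSG00000038508.7) on chromosome 8 from 70629393 to 70632456, and Lect2 (ENSMUSG00000021539.9), Inhba (ENSMUSG00000041324.14), and Fst (ENSMUSG00000021765.9) on chromosome 13, starting at 56542464, 16011851, and 114452290. Genes annotated on the opposite strand overlap Inhbe and Inhbc (Gm47200), Inhba (B230303A05Rik and Gm48444), Fst (Gm47040), and Ahsg (Gm30505). The kit was stranded, but the strand setting of the counting is not given in the sources used here, so reads of these pairs may not be separated.

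The 250 bases before the RefSeq transcription start (GRCm38.p6) are shown for the 4 genes whose log2(RPKM + 1) differed most between genotypes in fasted liver. Each is read on the gene's own strand, here the minus strand, with the last base next to the start. Capitals mark matches on either strand to 4 motifs spelled out after the sequences, namely the core of the C/EBP-ATF response element, the E-box bound by many basic helix-loop-helix factors, a nuclear receptor half-site, and the core of the TATA box. No matches overlapped.
Inhbe, chr10:127351849-127352098: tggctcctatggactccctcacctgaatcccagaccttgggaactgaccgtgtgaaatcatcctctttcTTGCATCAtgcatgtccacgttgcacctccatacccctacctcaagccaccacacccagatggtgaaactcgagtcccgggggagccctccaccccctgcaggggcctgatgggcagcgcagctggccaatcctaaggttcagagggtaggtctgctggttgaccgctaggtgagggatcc
Inhbc, chr10:127370549-127370798: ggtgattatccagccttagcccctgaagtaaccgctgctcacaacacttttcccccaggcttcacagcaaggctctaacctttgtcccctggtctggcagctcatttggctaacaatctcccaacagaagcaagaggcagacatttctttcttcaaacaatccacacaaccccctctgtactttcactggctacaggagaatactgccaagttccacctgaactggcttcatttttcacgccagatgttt
Fgf21, chr7:45615491-45615740: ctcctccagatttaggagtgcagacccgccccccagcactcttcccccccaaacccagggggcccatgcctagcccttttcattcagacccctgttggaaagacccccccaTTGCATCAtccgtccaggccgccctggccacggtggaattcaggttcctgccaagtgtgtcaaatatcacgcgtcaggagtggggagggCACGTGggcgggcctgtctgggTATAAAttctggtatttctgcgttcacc
Gdf15, chr8:70632457-70632706: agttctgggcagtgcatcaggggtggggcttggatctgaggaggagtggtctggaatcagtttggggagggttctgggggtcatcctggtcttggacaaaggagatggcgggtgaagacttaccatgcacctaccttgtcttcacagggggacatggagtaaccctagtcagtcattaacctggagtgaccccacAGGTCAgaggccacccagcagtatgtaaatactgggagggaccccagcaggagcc

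The 8-base C/EBP-ATF element TGATGCAA was present, on the opposite strand, in the Inhbe window (first base 181 before the start) and in the Fgf21 window (139 before the start), and in 294 of the 32851 promoters of the RefSeq table (0.895%, each counted over 300 bases from 250 before to 50 after the start). Fgf21 also held the E-box CACGTG (7.15% of promoters) and the TATA core TATAAA (13.6%), and Gdf15 held the half-site AGGTCA (16.3%). The printed Inhbc stretch held none of the 4, and AGGTCA lay at base 40 after its start. Of the other members with an entry in the table, Inhba and 1 of the starts of Fetub held TATAAA, a second start of Gdf15 held CACGTG, and Lect2 and Ahsg held no match. Fst had no entry. The RefSeq start of Inhbe lies 2563 bp inside the GENCODE gene, so the printed stretch is intragenic in that annotation. These matches describe the letters of the windows and nothing was measured at these promoters.

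Lpin1 itself was between 0.00573 and 0.0597 RPKM in the 6 Lpin1-/- libraries and between 0.726 and 22.0 RPKM in the 6 Lpin1+/+ libraries, the highest of which was fasted Lpin1+/+ library 1. In limma on log2(RPKM + 1) it did not pass an adjusted p of 0.05. Its genotype difference was −2.19 (SE 0.72, adjusted p = 0.0562) in fasted and −1.55 (SE 0.72, adjusted p = 0.231) in refed liver. A gene at low RPKM can thus differ without overlap and not pass. Depth was estimated at 93.8 to 126 M mapped reads per library, a scale that is uncertain because few low values fell on whole reads. Hepatocyte markers were high in every library, with Alb between 11780 and 45600 RPKM. Of the marker lists of 9 other cell types, the summed level was at most 0.293 RPKM for adipocytes and 1.64 RPKM for pancreatic acinar cells in any library, and Lep was listed at 0 in all. Some such sums stood apart: cholangiocyte markers (mostly Spp1) summed to 452 RPKM in fasted Lpin1-/- library 1 against 19.2 to 103 RPKM elsewhere (erythroid markers there summed to 1881 RPKM against 224 to 857 RPKM). In refed Lpin1+/+ library 2, Kupffer cell and macrophage markers summed to 329 RPKM against 37.5 to 260 RPKM elsewhere, and lymphocyte markers to 17.8 against at most 6.91 RPKM. Neutrophil markers summed to 126 RPKM in fasted Lpin1+/+ library 1, where the lowest of that group was 8.57 RPKM. They summed to 54.2 to 175 RPKM in fasted Lpin1-/-. In bulk liver, fewer cells of a type and less RNA per cell cannot be told apart. The labels call the libraries of a group biological replicates and give no further identity of the mice.

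**Figure D1:**
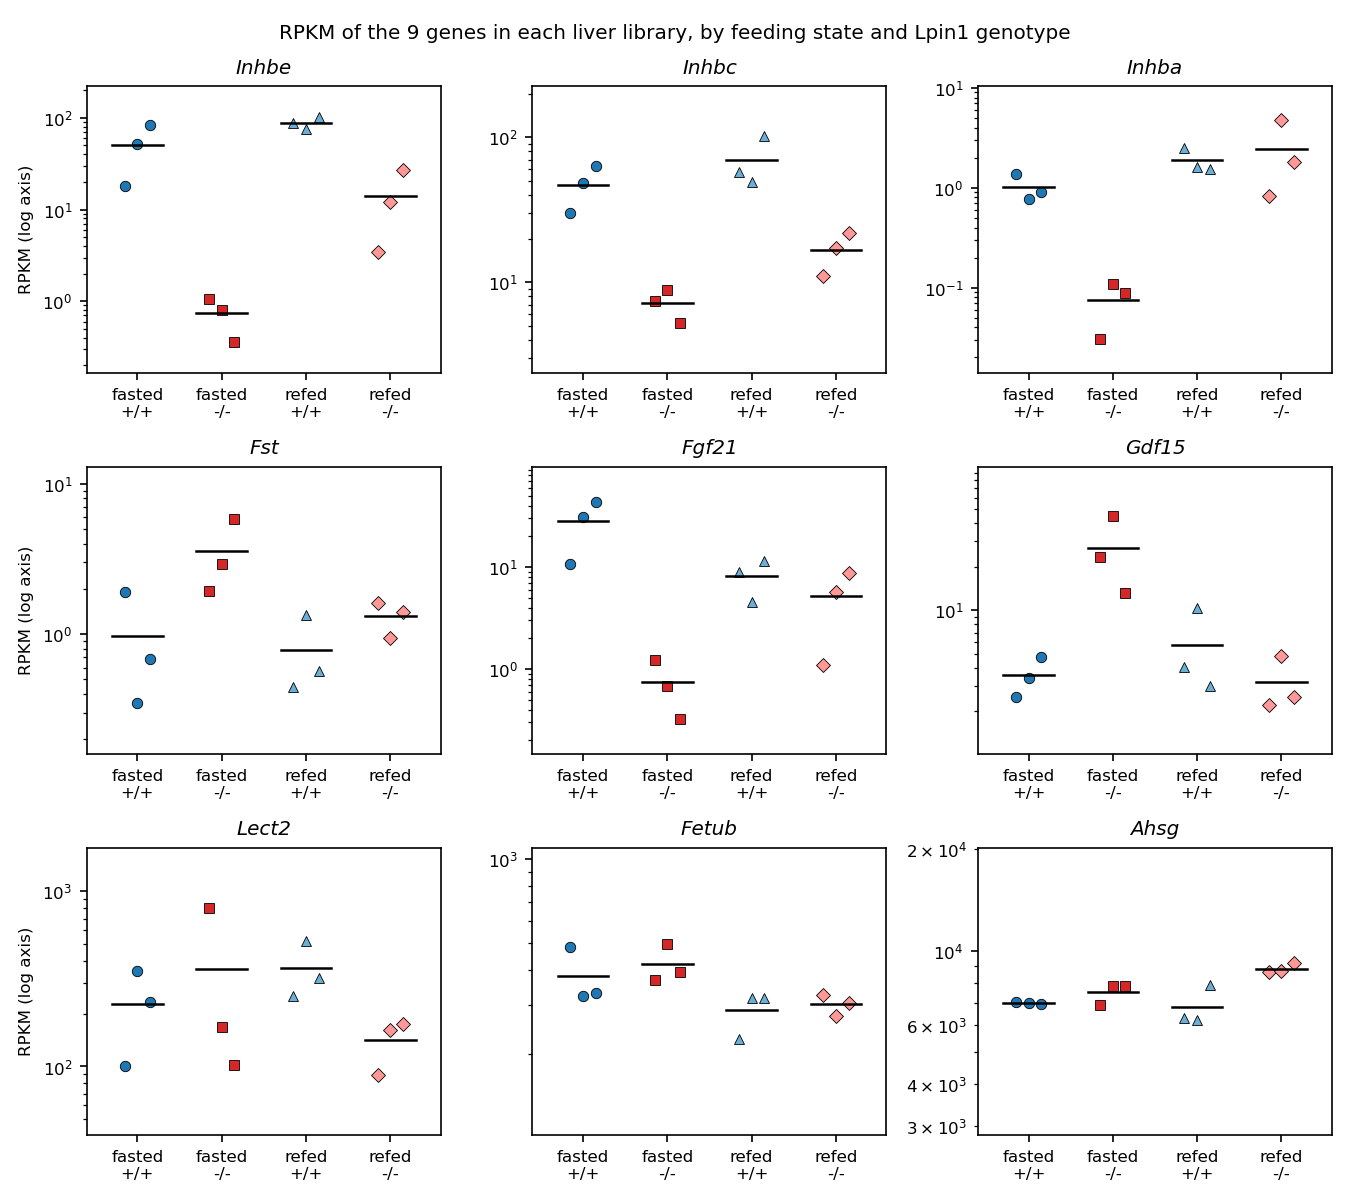
RPKM of each of the 9 genes (log axes, a different range in each panel) in the 12 libraries by group, with 1 point per library and a line at the group mean (n = 3). Inhbe, Inhbc, Inhba, and Fgf21 were lowest in fasted Lpin1-/- liver, Gdf15 and Fst were highest there, and Fetub and Ahsg varied little.

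The activin beta E subunit gene Inhbe was the member that differed most with genotype. In fasted liver its RPKM was 17.9, 51.3, and 84.03 in the 3 Lpin1+/+ libraries and 1.05, 0.802, and 0.363 in the 3 Lpin1-/- libraries. All Lpin1-/- libraries lay below all Lpin1+/+ libraries, and the lowest Lpin1+/+ value was in library 1, where Lpin1 was 22.0 RPKM. The mean was 51.1 ± 33.1 RPKM (SD, n = 3) in Lpin1+/+ and 0.739 ± 0.349 (SD, n = 3) in Lpin1-/-, a 69.1-fold lower mean, and the difference in log2(RPKM + 1) was −4.67 (SE 0.62). After refeeding Inhbe was 88.9, 74.9, and 101 RPKM in Lpin1+/+ and 3.42, 12.1, and 27.1 RPKM in Lpin1-/- liver. The genotypes again did not overlap, with a mean 6.21-fold lower in Lpin1-/- (log2 difference −2.91, SE 0.62). Refed Lpin1-/- values were all above fasted Lpin1-/- values (mean 19.3-fold higher), whereas the fasted and refed Lpin1+/+ values overlapped. In the order of the 4 group means, fasted Lpin1-/- was lowest and separate from refed Lpin1-/-, and each later neighbor overlapped the one before it.

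Inhbc, which encodes the beta C subunit next to Inhbe, followed the same order of groups over a narrower range. In fasted liver it was 29.9, 48.4, and 63.0 RPKM in Lpin1+/+ and 7.44, 8.85, and 5.20 RPKM in Lpin1-/-. After refeeding it was 57.5, 49.4, and 103 RPKM in Lpin1+/+ and 10.98, 17.3, and 21.8 RPKM in Lpin1-/-. No Lpin1-/- library of either state reached the lowest Lpin1+/+ library. The mean was 6.58-fold lower in Lpin1-/- in fasted liver (log2 difference −2.52, SE 0.35) and 4.18-fold lower in refed liver (−1.98, SE 0.35). The refed Lpin1-/- libraries all lay above the fasted ones (16.7 ± 5.45 against 7.16 ± 1.84 RPKM, SD, n = 3 each), while those of Lpin1+/+ overlapped.

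Within a library, Inhbe stood at 0.598 to 1.55 times the RPKM of Inhbc in the 6 Lpin1+/+ libraries, at 0.0699 to 0.141 times in fasted Lpin1-/-, and at 0.312, 0.701, and 1.24 times in refed Lpin1-/- libraries 1, 2, and 3. The ratio in fasted Lpin1-/- liver was thus below that of every other library, and refed Lpin1-/- libraries 2 and 3 lay within the Lpin1+/+ range. Across all 12 libraries the levels of both genes on the log2(RPKM + 1) scale had a Pearson r of 0.973, and after subtracting group means r was 0.826. These are descriptions over libraries that share the group differences.

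**Figure D2:**
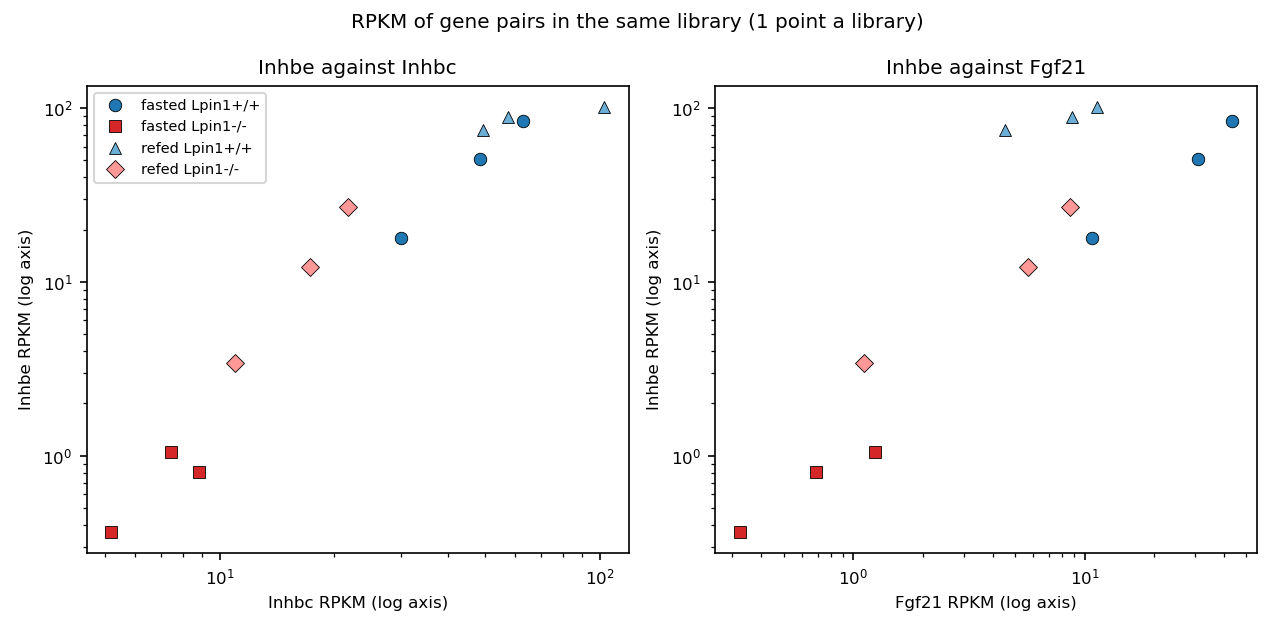
RPKM of Inhbe (y, log axis) against Inhbc (left) and against Fgf21 (right) in the same library, with 1 point per library and a symbol per group. Inhbe spans from 0.363 to 101 RPKM, Inhbc from 5.20 to 103 RPKM, and within each group the libraries that are higher in Fgf21 are higher in Inhbe.

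Inhba, the beta A subunit gene, was expressed at a far lower level. It was 1.37, 0.764, and 0.911 RPKM in fasted Lpin1+/+ and 0.0308, 0.109, and 0.0878 RPKM in fasted Lpin1-/-. The groups did not overlap, and the mean was 13.4-fold lower in Lpin1-/-. On the log2(RPKM + 1) scale this was a difference of −0.89 (SE 0.33), and with 0.1 added in place of 1 it was −2.65. After refeeding it was 2.49, 1.60, and 1.55 RPKM in Lpin1+/+ and 0.821, 4.75, and 1.83 RPKM in Lpin1-/-, which overlapped. Fasted levels lay below refed levels in both genotypes, by a mean of 1.85-fold in Lpin1+/+ and 32.5-fold in Lpin1-/-.

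Fst, the gene of the activin antagonist follistatin, went the other way in fasted liver. It was 1.90, 0.351, and 0.685 RPKM in fasted Lpin1+/+ and 1.95, 2.94, and 5.87 RPKM in fasted Lpin1-/-. The groups were separated by a narrow margin, between Lpin1+/+ library 1 and Lpin1-/- library 1, and the mean was 3.66-fold higher in Lpin1-/- (log2 difference 1.2, SE 0.35). After refeeding it was 0.443, 1.34, and 0.569 RPKM in Lpin1+/+ and 1.62, 0.935, and 1.40 RPKM in Lpin1-/-. These overlapped, and all refed Lpin1-/- libraries lay below the fasted Lpin1-/- ones. The 9 stellate cell and fibroblast markers summed to 227 to 322 RPKM in fasted Lpin1-/- and 77.9 to 181 RPKM in fasted Lpin1+/+. Most of this was Dcn, at 179 to 264 and 61.8 to 144 RPKM. Dcn, Des, Colec11, and Hand2 were higher in fasted Lpin1-/- without overlap, and Reln, Lrat, Col1a1, Col3a1, and Ngfr overlapped. None of 8 tested markers was past the threshold in either direction at an adjusted p under 0.05 in limma. The part of these markers in the Fst difference was not tested. The ratio of Inhba to Fst within a library was 0.0150 to 0.0372 in fasted Lpin1-/- liver and 0.507 to 5.61 in the other 9 libraries.

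Fgf21, the fasting hormone gene, was 10.8, 31.0, and 43.6 RPKM in fasted Lpin1+/+ and 1.24, 0.687, and 0.323 RPKM in fasted Lpin1-/-. No fasted Lpin1-/- library came near the lowest Lpin1+/+ library, and the mean was 38.0-fold lower in Lpin1-/- (log2 difference −3.90, SE 0.59). After refeeding it was 8.86, 4.55, and 11.4 RPKM in Lpin1+/+ and 1.11, 5.72, and 8.68 RPKM in Lpin1-/-, with overlap. The direction of the feeding difference was opposite in the genotypes, with a refed mean 3.44-fold lower than the fasted mean in Lpin1+/+ (log2 difference −1.54, SE 0.59) and 6.90-fold higher in Lpin1-/- (1.59, SE 0.59). Fasted and refed libraries overlapped in both genotypes. The feeding difference of Lpin1-/- minus that of Lpin1+/+ was 3.14 (SE 0.83).

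In each of the 4 groups the 3 libraries stood in the same order for Fgf21 and Inhbe. This held for no other pair of the 9 genes, and Inhbe with Inhbc and Fgf21 with Inhbc shared the order in 3 of 4 groups. After subtracting group means, r of Fgf21 with Inhbe was 0.956 and with Inhbc 0.882 over 12 libraries. Over the libraries with the group differences kept, r of Fgf21 with Inhbe was 0.852, since Fgf21 was highest in fasted Lpin1+/+ and Inhbe in refed Lpin1+/+ liver.

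Gdf15, the stress-induced hormone gene, was highest where Fgf21 was lowest. It was 2.51, 3.39, and 4.74 RPKM in fasted Lpin1+/+ and 23.4, 44.8, and 13.2 RPKM in fasted Lpin1-/-. The groups did not overlap, and the mean was 7.63-fold higher in Lpin1-/- (log2 difference 2.49, SE 0.46). After refeeding it was 4.04, 10.3, and 2.98 RPKM in Lpin1+/+ and 2.22, 4.81, and 2.49 RPKM in Lpin1-/-. These overlapped, and the highest of them was refed Lpin1+/+ library 2, the library with the high macrophage marker sum, whose part in that value was not tested. Refed Lpin1-/- libraries all lay below fasted ones, with a mean 8.54-fold lower (log2 difference −2.64, SE 0.46), against 0.45 (SE 0.46) in Lpin1+/+.

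Lect2 was variable within groups. It was 100, 350, and 232 RPKM in fasted Lpin1+/+ and 805, 169, and 102 RPKM in fasted Lpin1-/-. The value of 805 was in the library with the high cholangiocyte marker sum, and without that library the fitted genotype difference in fasted liver was of the opposite sign to the 0.26 (SE 0.68) of all libraries, at −0.61. It was −0.24 without fasted Lpin1+/+ library 1. After refeeding it was 252, 520, and 319 RPKM in Lpin1+/+ and 89.3, 162, and 174 RPKM in Lpin1-/-. There the genotypes did not overlap, with a mean 2.57-fold lower in Lpin1-/- (log2 difference −1.35, SE 0.68). Among other liver-secreted proteins, Lcn2 was 1034 RPKM in fasted Lpin1-/- library 1 against 161 and 45.9 RPKM in that group, and Orm2 919 against 209 and 22.15 RPKM. Fgb was lowest of that group there, at 1376 RPKM. In refed Lpin1+/+ library 2, where Lect2 was 520 RPKM, Lcn2 was 6039 against 36.0 and 31.6 RPKM, and Orm2 1816 against 46.0 and 16.9 RPKM. The part of these genes and of the cholangiocyte markers in the Lect2 values was not tested. None of the 5 cholangiocyte markers was past the threshold between genotypes in fasted liver.

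The fetuin genes stayed within narrow ranges. Fetub, which encodes an inhibitor of the egg protease ovastacin, was 482, 323, and 332 RPKM in fasted Lpin1+/+, 369, 497, and 394 RPKM in fasted Lpin1-/-, 225, 317, and 318 RPKM in refed Lpin1+/+, and 326, 274, and 303 RPKM in refed Lpin1-/-. Its genotypes overlapped in both states, and its refed libraries lay below its fasted libraries in both genotypes, by a mean of 1.32-fold and 1.40-fold. Ahsg, whose product inhibits calcification, was the most abundant of the 9. Its RPKM was 7041, 6963, and 6956 in fasted Lpin1+/+, 6891, 7861, and 7843 in fasted Lpin1-/-, 6290, 6219, and 7911 in refed Lpin1+/+, and 8605, 8715, and 9172 in refed Lpin1-/-. The refed Lpin1-/- libraries were above all others, by a mean of 1.30-fold over refed Lpin1+/+ (log2 difference 0.38, SE 0.28).

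**Figure D3:**
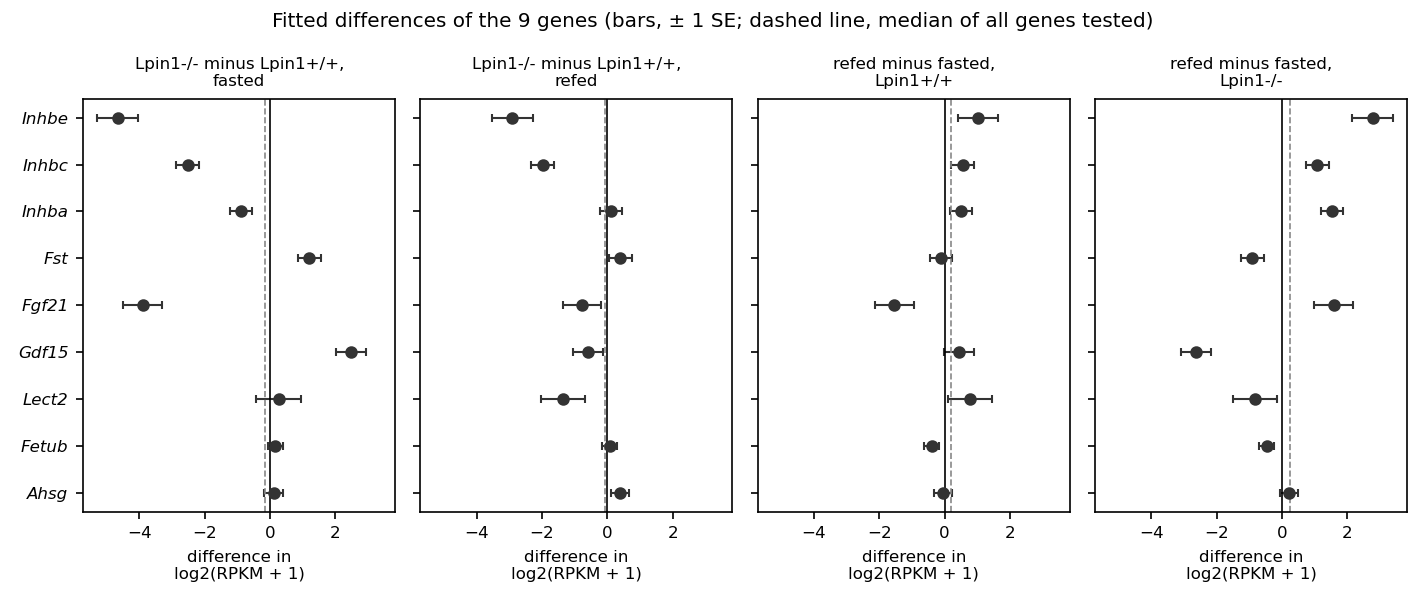
Fitted differences of the 9 genes on the log2(RPKM + 1) scale (points) with ± 1 SE (bars) for genotype in fasted and in refed liver and for feeding in each genotype. The dashed line is the median of all 11507 genes, −0.14, −0.07, 0.19, and 0.25 from left to right.

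Set against all genes, 5 of the 9 had an adjusted p under 0.05 for genotype in fasted liver, where 18.8% of genes did, and in 6 of the 9 the groups did not overlap, as in 32.9% of genes. For genotype in refed liver the counts were 2 of 9 (6.67% of genes) and 4 of 9 without overlap (33.9%). For feeding they were 0 of 9 in Lpin1+/+ (1.72%), where 1 of 9 had an unadjusted p under 0.05, with 2 of 9 not overlapping (18.1%), and 4 of 9 in Lpin1-/- (20.7%), with 7 of 9 not overlapping (46.8%). For the interaction of genotype and feeding the count was 1 of 9 (1.28%), which was Gdf15. These values chose the genes, so nothing is read from the counts.

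The genes whose levels over the 12 libraries were most like those of each member were ranked by Pearson r on the log2(RPKM + 1) scale, as a description. For Inhbe they were Cml2 (0.975), Inhbc (0.973), and Ccdc181 (0.973). For Inhbc they were Dhrs1 (0.980), Inhbe (0.973), and Nthl1 (0.971). For Fgf21 they were Glyat (0.956), Ggact (0.947), and Arrdc3 (0.945). Inhbc was thus the second of all genes tested for Inhbe, and Inhbe the second for Inhbc, whereas Inhbe ranked 121 for Fgf21. For Gdf15 they were Tmem171 (0.973), Bambi (0.947), and Aph1b (0.944), for Fst they were Sgk1 (0.953), Sun1 (0.925), and Ppm1d (0.924), and for Inhba they were Dapk2 (0.965), Mgat2 (0.940), and Abcb10 (0.934). For Lect2 they were Serpina12 (0.954), Apoc2 (0.953), and Sec11c (0.944), whereas the closest genes of Fetub (Slc8b1, 0.892, Lpcat3, 0.874, and Rnf125, 0.865) and Ahsg (Sbds, 0.878, Slc25a5, 0.877, and Ubac1, 0.877) followed them less closely.

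Among the partners of the activin genes, the list of ligands, binding proteins, receptors, and Smads held 36 genes, of which 32 were tested (adjusted p from limma over all 11507 genes, threshold 0.05). For genotype in fasted liver, where 18.8% of all genes passed, 3 were higher in Lpin1-/- and 0 lower. The median log2 difference was 0.24 against −0.14 for all genes. The 3 higher ones were the hepcidin gene Hamp (3.14, SE 0.98, adjusted p = 0.0442), Id3, a target of BMP signaling (2.22, SE 0.59, adjusted p = 0.0231), and Bambi, a pseudoreceptor (0.95, SE 0.25, adjusted p = 0.0221). The calls of Id3 and Bambi were lost without fasted Lpin1+/+ library 1 or fasted Lpin1-/- library 1 or 2 (adjusted p up to 0.083 and 0.072), and that of Hamp under 11 of 18 alternatives (up to 0.111). In refed liver, where 6.67% of all genes passed, 1 gene was higher and 0 lower (median −0.10 against −0.07). It was the beta B subunit gene Inhbb (1.43, SE 0.34, adjusted p = 0.0294), at 3.71, 1.78, and 1.61 RPKM in Lpin1-/- and 0.124 to 0.277 RPKM in Lpin1+/+. Its call was lost when any 1 of the 6 refed libraries was left out (adjusted p up to 0.117). In fasted liver Inhbb differed by 0.68 (SE 0.34, adjusted p = 0.181).

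None of the type I and type II receptor genes of the list passed the threshold between genotypes. At their low RPKM the added 1 narrows a difference: Acvr1b averaged 2.99 RPKM in fasted Lpin1+/+ and 1.30 RPKM in fasted Lpin1-/-. The type II receptor gene Acvr2a had log2 differences of −0.51 in fasted (adjusted p = 0.185) and 0.63 in refed liver (adjusted p = 0.171), and Acvr2b differed by −0.25 (adjusted p = 0.302) and −0.18 (adjusted p = 0.536). The type I receptor gene Acvr1b differed by −0.75 in fasted (adjusted p = 0.138) and −0.26 in refed liver (adjusted p = 0.68). Acvr1c, the type I receptor gene known for its role in adipose tissue, was at most 0.0437 RPKM in any library. Inha and Fstl3 averaged 0.134 and 0.307 RPKM over all libraries, so these 3 genes were under the filter and not tested. In fasted liver Fstl3 was 0.313 to 1.32 RPKM in Lpin1-/- and 0.0248 to 0.191 RPKM in Lpin1+/+. Inha was 0.144 to 0.356 RPKM in Lpin1-/- and 0.0588 to 0.0714 RPKM in Lpin1+/+. Neither overlapped, at levels near the floor. The inhibitory Smad gene Smad7 differed by 0.14 in fasted (adjusted p = 0.809) and −0.10 in refed liver (adjusted p = 0.888). With feeding in Lpin1-/- liver, Acvr2a rose by 0.90 (SE 0.25, adjusted p = 0.0289), a call lost without fasted Lpin1-/- library 1 or 2 or any 1 refed Lpin1-/- library (adjusted p up to 0.101).

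For the hormones, the list of FGF21 and GDF15 receptors held 8 genes, 5 of them tested. Fgfr4, the FGF receptor of hepatocytes, was the only 1 of the 5 past the threshold for genotype in fasted liver, where 18.8% of all genes were. It was 24.1, 13.7, and 16.0 RPKM in fasted Lpin1+/+ and 5.90, 8.30, and 5.75 RPKM in fasted Lpin1-/-. It was lower in all 3 Lpin1-/- libraries (log2 difference −1.28, SE 0.25, adjusted p = 0.00517, range over 18 alternatives 0.00148 to 0.0308). In refed liver it differed by −0.78 (SE 0.25, adjusted p = 0.0841), and no gene of the list was past the threshold there. Klb, the FGF21 coreceptor gene, was 13.4 RPKM on average in fasted Lpin1+/+ and 7.44 RPKM in fasted Lpin1-/- (−0.75, SE 0.34, adjusted p = 0.147), and Fgfr1 was 0.707 and 2.56 RPKM (0.88, SE 0.40, adjusted p = 0.152). The Fgfr1 groups overlapped, at 1.197, 0.294, and 0.628 RPKM in Lpin1+/+ and 5.40, 1.206, and 1.06 RPKM in Lpin1-/-. The highest value was in Lpin1-/- library 1. Gfral was listed at 0 in all 12 libraries.

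**Figure D4:**
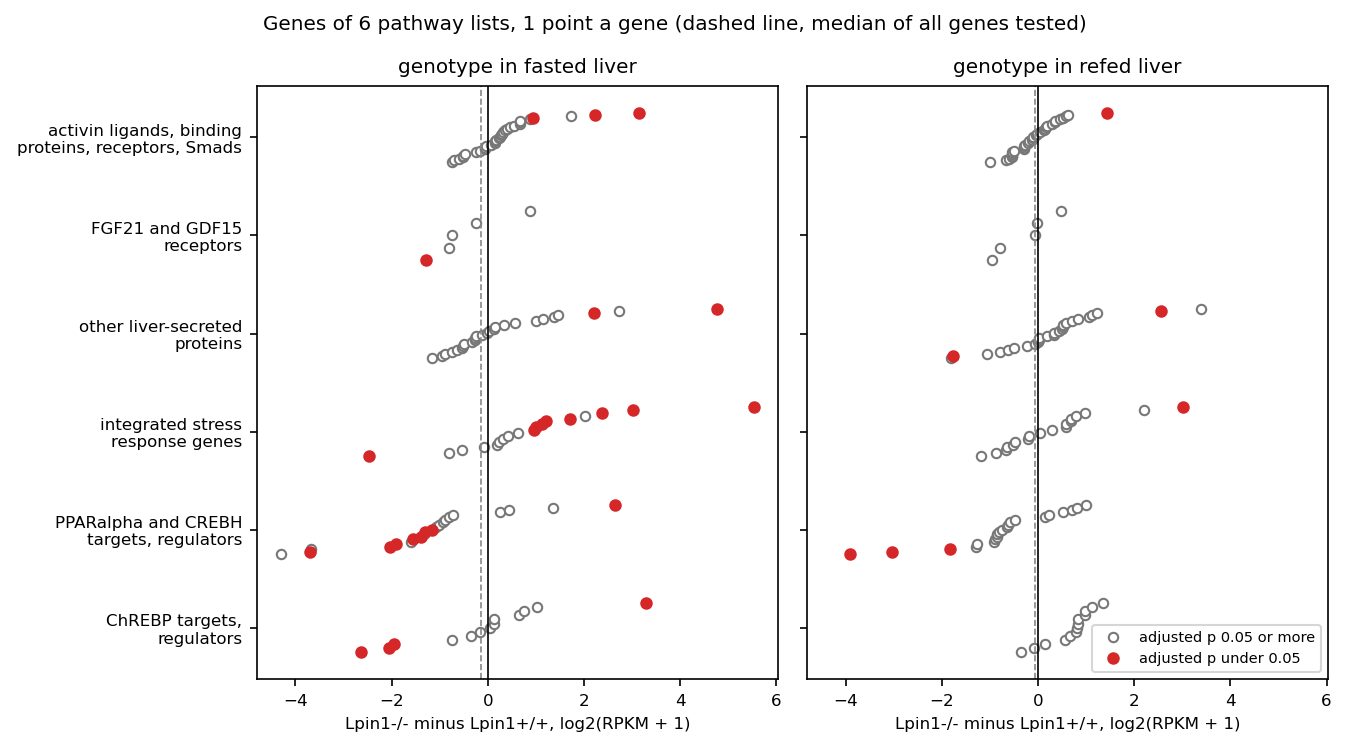
Genotype differences on the log2(RPKM + 1) scale for the tested genes of 6 pathway lists in fasted (left) and refed liver (right), with 1 point per gene, filled where the adjusted p was under 0.05, and a dashed line at the median of all genes. In fasted liver 9 of 18 integrated stress response genes and 8 of 21 PPARalpha and CREBH genes are filled, against 18.8% of all genes tested. Of the other lists, 3 of 32 activin, 1 of 5 receptor, 2 of 26 secreted protein, and 4 of 13 ChREBP genes are filled there.

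Genes of the pathways known to act on Fgf21 and Gdf15 were counted in the same fit. Of 18 tested genes of the integrated stress response, which is driven by ATF4, 8 were higher and 1 lower in fasted Lpin1-/- liver. Of all genes 18.8% passed there (median log2 difference 0.79 for the list against −0.14 for all genes). Atf4 itself was 69.9, 88.3, and 114 RPKM in fasted Lpin1+/+ and 191, 142, and 210 RPKM in fasted Lpin1-/- (1.00, SE 0.21, adjusted p = 0.00832). The largest differences were those of Ddit4, an mTORC1 inhibitor (5.54, SE 0.86, adjusted p = 0.00178), the transcription factor gene Atf3 (3.01, SE 0.34, adjusted p = 0.000399), and the cystathionine gamma-lyase gene Cth (2.37, SE 0.26, adjusted p = 0.000399) upward, and Atf5 downward (−2.46, SE 0.32, adjusted p = 0.000765). Other genes of the list did not pass, including Ddit3 (0.31, adjusted p = 0.554), Trib3 (−0.54, adjusted p = 0.286), and Asns (−0.08, adjusted p = 0.936). In refed liver, where 6.67% of all genes passed, 1 gene was higher and 0 lower (median 0.17 against −0.07). Atf4 differed there by 0.05 (adjusted p = 0.923). With feeding in Lpin1-/- liver, where 20.7% of all genes passed, 2 rose and 5 fell, Atf4 among the latter (−0.71, SE 0.21, adjusted p = 0.0356). With 1 library left out between 4 and 10 passed.

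Of 21 PPARalpha and CREBH genes, 1 was higher and 7 lower in fasted Lpin1-/- liver (median −1.17 against −0.14), where 18.8% of all genes passed. The lower ones included the peroxisomal enzyme gene Ehhadh (−2.04, SE 0.27, adjusted p = 0.000854) and the pantetheinase gene Vnn1 (−3.70, SE 0.54, adjusted p = 0.00138). The higher one was Pdk4, the pyruvate dehydrogenase kinase gene (2.65, SE 0.36, adjusted p = 0.000901). The regulators themselves did not pass, at −0.93 for Ppara (SE 0.41, adjusted p = 0.136) and −0.72 for Creb3l3 (SE 0.24, adjusted p = 0.0555), although the 3 fasted Lpin1-/- libraries were below the 3 fasted Lpin1+/+ libraries for Creb3l3. In refed liver, where 6.67% of all genes passed, 0 were higher and 3 lower (median −0.74 against −0.07). With 1 library left out between 2 and 5 passed there.

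Among all genes 18.8% passed for genotype in fasted and 6.67% in refed liver. Of 13 tested ChREBP genes, 1 was higher and 3 lower in fasted Lpin1-/- liver (median 0.05), and 0 passed in refed liver (median 0.81). The higher one was Txnip (3.29, SE 0.36, adjusted p = 0.000358), and Gpd1 was lower (−2.64, SE 0.30, adjusted p = 0.000405), as were Tkfc (−2.05) and Pklr (−1.95). The ChREBP gene Mlxipl differed by −0.17 (adjusted p = 0.763) in fasted and 0.97 (adjusted p = 0.115) in refed liver, and with feeding it rose in Lpin1-/- by 1.43 (SE 0.34, adjusted p = 0.0138). Of 26 other tested genes of liver-secreted proteins, 2 were higher and 0 lower in fasted Lpin1-/- liver (median −0.07), the insulin-regulated binding protein gene Igfbp1 (4.77, SE 1.02, adjusted p = 0.00905) and the angiotensinogen gene Agt (2.21, SE 0.29, adjusted p = 0.000854). In refed liver 1 was higher, again Agt (2.56, SE 0.29, adjusted p = 0.00119), and 1 lower, Enho (−1.77, SE 0.38, adjusted p = 0.0207), whose call was lost without refed Lpin1+/+ library 1 or 2 or refed Lpin1-/- library 1 or 3 (adjusted p up to 0.0822).

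With feeding, few genes of the lists passed in Lpin1+/+ liver, where 1.72% of all genes passed. There 0 of the activin, receptor, PPARalpha and CREBH, and ChREBP genes passed (1594 of all 11507 genes had an unadjusted p under 0.05 in limma), and 1 stress response gene rose, Ddit3 (1.70, SE 0.33, adjusted p = 0.0299), a call lost under 12 of 18 alternatives (up to 0.135). The secreted factor genes Manf (2.78, SE 0.51, adjusted p = 0.023) and Tsku (2.69, SE 0.55, adjusted p = 0.0331) also rose, and these calls were lost under 7 and 11 of 18 alternatives (up to 0.103 and 0.145). In Lpin1-/- liver 20.7% of all genes passed with feeding. Of 13 tested ChREBP genes 8 rose there and 1 fell (median log2 difference 1.26 against 0.25 for all genes). Those that rose included the pyruvate kinase gene Pklr (2.63, SE 0.42, adjusted p = 0.00214), the triokinase gene Tkfc (2.80, SE 0.45, adjusted p = 0.00217), and the glycerol phosphate dehydrogenase gene Gpd1 (2.49, SE 0.30, adjusted p = 0.000689), and the one that fell was Txnip (−3.15, SE 0.36, adjusted p = 0.000583). Of the secreted protein genes 4 rose and 3 fell, with Angptl8, a lipoprotein lipase regulator induced by feeding (4.59, SE 0.69, adjusted p = 0.00165), and Tsku (3.71, SE 0.55, adjusted p = 0.00157) among the former and Angptl4 (−2.01, SE 0.45, adjusted p = 0.0108) among the latter. Of the PPARalpha and CREBH genes 1 fell, Pdk4 (−2.12, SE 0.36, adjusted p = 0.00302). Of the activin list 3 rose and 1 fell, but with 1 library left out between 0 and 6 passed, and the calls of Acvr1, Smad3, and Bambi were lost under 5, 9, and 2 alternatives, among them leaving out fasted Lpin1-/- library 2 or refed Lpin1-/- library 1 (adjusted p up to 0.103, 0.143, and 0.0584). Of the FGF21 and GDF15 receptors 2 rose, Fgfr3 (0.95, SE 0.26, adjusted p = 0.025) and Fgfr4 (0.91, SE 0.25, adjusted p = 0.0238), and both were lost without fasted Lpin1-/- library 1 or 3 or refed Lpin1-/- library 1 or 2 (up to 0.0937 and 0.0802), so that with 1 library left out between 0 and 2 passed.

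Splicing gave a readout of the members that their choice had not used. The deposited tables give, for each skipped exon event, reads that include the exon and reads that skip it. Inhbe, Fst, Fgf21, and Gdf15 had no event in the tables, and Inhba had 2 with too few reads to test. Of 100 tested events of the members in fasted liver, 14 differed between genotypes at an adjusted p under 0.05, against 11.3% of all 69644 events, and all 14 were in Ahsg with less inclusion in Lpin1-/-. In refed liver 0 of 95 passed (limma, 21 at an unadjusted p under 0.05), against 0.97% of all 65231 events.

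The 14 events of Ahsg were not separate measurements. They shared a single skipping junction from 22896609 to 22898797 on chromosome 16, which 20 of the 81 tested Ahsg events used, and differed in the boundaries of the skipped exon. This junction was singled out after its values were seen. It had 15, 12, and 10 reads in the 3 fasted Lpin1+/+ lists and 215, 96, and 85 reads in the 3 fasted Lpin1-/- lists, with no overlap. In refed liver it had 14, 37, and 28 reads in Lpin1+/+ and 116, 86, and 92 reads in Lpin1-/-, again with no overlap, though none of its 12 events there passed the threshold. Skipping was rare against the main form: the exon from 22898128 to 22898211 had 154845 to 160274 inclusion reads in fasted Lpin1+/+ and 164773 to 188506 in fasted Lpin1-/-. Its log2 ratio of inclusion to skipping differed by −3.09 (SE 0.82, adjusted p = 0.029), while inclusion was 99.98% on average in Lpin1+/+ and 99.83% ± 0.10 (SD, n = 3) in Lpin1-/-. Against the much rarer form of the exon from 22898146 to 22898328, inclusion was 84.85% ± 8.35 in Lpin1+/+ and 17.59% ± 12.81 in Lpin1-/- (SD, n = 3 each, log2 ratio −5.05, SE 0.80, adjusted p = 0.00209). The number of called events fell to 2 without the first or second fasted Lpin1+/+ list, to 3 without the third, and to 3 or 5 without the first or second fasted Lpin1-/- list.

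**Figure D5:**
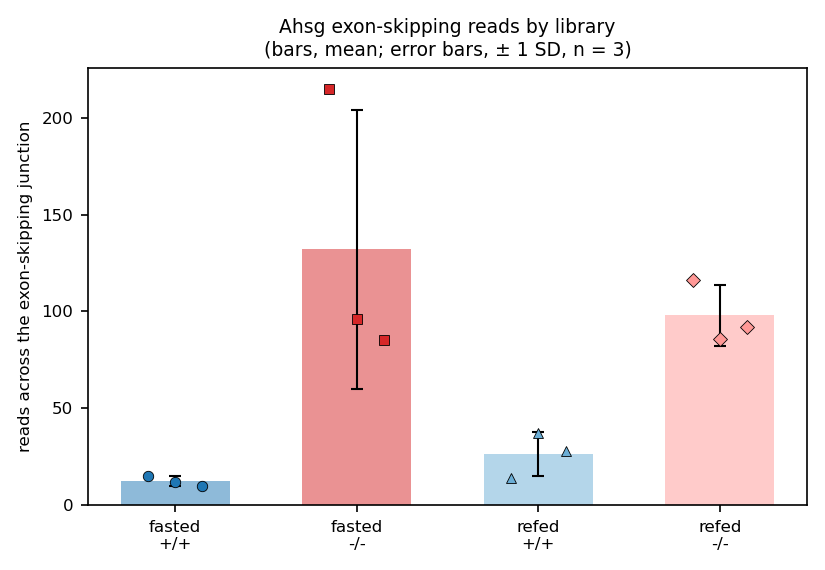
Reads across the Ahsg exon-skipping junction (linear axis from 0) in each library by group, with bars at the mean and error bars of ± 1 SD (n = 3). Fasted Lpin1-/- libraries had 85 to 215 reads against 10 to 15 in fasted Lpin1+/+, and refed libraries had 86 to 116 against 14 to 37.

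In the other members, the events with the most reads of the rarer form gave no call. The Fetub exon from 22929075 to 22929309 on chromosome 16 was included at 95.9% ± 1.08 in fasted Lpin1+/+ and 94.56% ± 0.54 in fasted Lpin1-/- (SD, n = 3 each, log2 ratio −0.46, SE 0.67, adjusted p = 0.701). An Inhbc exon from 127368650 to 127368790 on chromosome 10 was included at 1.23% ± 0.55 in refed Lpin1+/+ and 3.94% ± 2.10 in refed Lpin1-/- (log2 ratio 1.67, SE 0.69, adjusted p = 0.309). A Lect2 exon from 56542969 to 56543109 on chromosome 13 was included at 0.33% ± 0.06 and 0.14% ± 0.19 (log2 ratio −1.84, SE 0.92, adjusted p = 0.409), and an Ahsg exon from 22895600 to 22895694 at 0.12% ± 0.07 and 0.26% ± 0.02 (1.25, SE 0.72, adjusted p = 0.478), both in refed liver. The untested Inhba exon from 16014379 to 16014532 was included at 64.78% ± 19.40 in refed Lpin1+/+ and 57.47% ± 17.05 in refed Lpin1-/-.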

How the data were processed

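Paired-end RNA-Seq reads (TruSeq stranded kit) of 12 livers were aligned by the authors to GRCm38 with HISAT2 (2.0.5) and counted per gene with htseq-count (HTSeq 0.6.0), per the submitters' processing notes, and the authors deposited RPKM for 22456 genes per library. For splicing, rMATS was run by the authors, whose deposited tables give counts of inclusion and of skipping for each skipped exon event, with their own p-values and FDRs, which were not used. Groups came from the labels. In the event tables the libraries of a group stand in lists without replicate numbers. The group of each list follows from the order of the comparison, and Lpin1+/+ counts equalled those deposited for the comparison of feeding states in Lpin1+/+ for 1523 of 1523 shared fasted and 1719 of 1719 shared refed events. Which mouse a list position is was not given. Reads that skip the Lect2 exon did follow the RPKM of Lect2 in libraries 1, 2, and 3. In fasted Lpin1+/+ they were 750, 2423, and 1714 (RPKM 100, 350, and 232). In fasted Lpin1-/- they were 5885, 1262, and 736 (RPKM 805, 169, and 102). By that order the 215 Ahsg skipping reads would be in fasted Lpin1-/- library 1, which was not tested.

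RPKM was compared as log2(RPKM + 1) with limma (3.58.1, R 4.3.3) in 1 fit of the 4 groups with a variance trend. The fit kept the 11507 genes averaging 0.5 RPKM or more, and the Benjamini-Hochberg adjustment ran over all of them (threshold 0.05). Since the deposited values are RPKM, the count test of the study was not run. An exon event was tested where each of the 6 libraries had 10 or more counts of both forms together. The tested value was log2 of inclusion over skipping counts, each increased by 0.5 and divided by the effective length of its form, in limma. Both fits were also run on simulated data, with genes or events drawn independently and the same spread in all groups. Real events can share a junction, so nothing is read from those runs here. Depth was estimated from RPKM times exon length at low values, of which 7.0% to 10.9% lay on whole reads (within a relative 0.003). Other steps used Python 3.11.15 with pandas 2.3.3 and numpy 2.4.6, and matplotlib 3.10.9 for figures. Promoters came from RefSeq on GRCm38.p6, with entries for 8 of the 9 genes.

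The 9 genes, the gene lists, and the tests were chosen with earlier results of these data known. Named genes are the 9, Lpin1, set regulators and receptors, up to 4 genes per list and contrast with the largest difference past the threshold, the 3 genes most like each member, and per member the exon event with the largest mean of its rarer form. Lcn2, Orm2, and Fgb were named outside this rule, after their values were seen. A gene that this rule names is not reported here. The alternatives tried were adding 0.1 in place of 1, dropping the filter, keeping only genes averaging 5 RPKM or more, rescaling libraries by the median ratio, a replicate block, only the 6 libraries compared, each library left out, and for exon events 20 counts in place of 10 and 1 in place of 0.5. Deviations of same-numbered libraries from their group means had r of 0.186, 0.297, and 0.162 in the genotype comparison of refed liver. In no other comparison was every r over 0.1. Differently numbered libraries were not compared, so whether the replicate numbers pair the libraries was not tested. P-values set a difference against the spread between these libraries, which in the gene fit is 1 estimate shared by the 4 groups. That spread limits precision with 3 libraries per group. Its parts from mice and from read numbers were not separated.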

Additional observations from a re-analysis of the deposited data

Results flagged for a closer look

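The difference between the feeding responses of the genotypes was tested as an interaction (Lpin1-/- response minus Lpin1+/+ response) over all 11507 genes. In limma 147 of them (1.28%) had an adjusted p under 0.05. In the pathway lists these were 1 of 18 tested stress response genes and 2 of 13 tested ChREBP genes. Of the 9 genes 1 also passed, Gdf15, but these values chose it, so nothing is read from that call. Gdf15 had an interaction of −3.09 (SE 0.66), with fasted and refed Lpin1-/- libraries apart and those of Lpin1+/+ overlapping. Its call was lost without the filter and without any 1 library other than fasted Lpin1-/- library 3 (interaction −3.40 to −2.65). It is given without a p since its levels served to choose it. Atf3 had an interaction of −3.88 (SE 0.48, adjusted p = 0.00664, range over 16 alternatives 0.00305 to 0.0311). It was 7.69, 12.7, and 20.9 RPKM in fasted Lpin1-/- against 1.85, 1.06, and 1.44 RPKM in refed Lpin1-/-, and 0.810, 0.466, and 0.858 RPKM in fasted Lpin1+/+ against 2.53, 5.84, and 2.59 RPKM in refed Lpin1+/+. All refed Lpin1-/- libraries thus lay below all fasted Lpin1-/- libraries, and all refed Lpin1+/+ libraries lay above all fasted Lpin1+/+ libraries. Txnip had an interaction of −2.49 (SE 0.51, adjusted p = 0.0398), lost under 12 of 17 alternatives (up to 0.0932). Gpd1 had an interaction of 2.29 (SE 0.42, adjusted p = 0.0316), lost under 9 of 17 alternatives (up to 0.101).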

How the results depend on the processing

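No fold change of a called member changed sign under any alternative run. These values chose the members, so nothing is read from that or from the calls of members below. Uncalled differences did change sign, as that of Lect2 for genotype in fasted liver (−0.61 to 0.87). The number of genes past the threshold for feeding in Lpin1+/+ liver was 198, and it was 50 after rescaling, 93 with the replicate block, and 0 with only the 6 libraries compared (limma, 1151 at an unadjusted p under 0.05). For genotype in fasted liver it was 2168, and 1011 with only the 6 libraries. For the interaction it was 147, and 83 without the filter, 321 after rescaling, and 81 with the replicate block, and the number of members was 1, and 0 without the filter (2 at an unadjusted p under 0.05). The cause of these shifts was not tested. With 1 library left out, the genes past the threshold ranged from 23 to 229 and from 1122 to 3108 for feeding in Lpin1+/+ and Lpin1-/-, from 1037 to 2313 and from 242 to 1046 for genotype in fasted and refed liver, and from 30 to 191 for the interaction. The members ranged from 0 to 0, 3 to 6, 4 to 6, 1 to 2, and 0 to 1 in that order, and the exon events of the members from 2 to 15 in fasted and 0 to 0 in refed liver. In refed liver the member lost was Inhbe, without refed Lpin1+/+ library 1 or 3 or refed Lpin1-/- library 1 or 2 (log2 difference −2.99 to −2.21). The Fst call in fasted liver was lost under 8 alternatives, among them leaving out fasted Lpin1+/+ library 2 or 3 or fasted Lpin1-/- library 2 or 3 (log2 difference 0.86 to 1.26), and the Inhbc call for feeding in Lpin1-/- under 10 (0.87 to 1.24). Rescaling moved the median of all genes from 0.185 to −0.001 and from 0.250 to 0.059 for feeding in Lpin1+/+ and Lpin1-/-, and the share of called genes that were higher from 88.4% to 64.0% and from 85.9% to 68.8%, and for genotype from 29.9% to 41.0% in fasted and from 39.0% to 57.8% in refed liver. Among the members it turned only Ahsg for feeding in Lpin1-/- (0.23 to −0.02). The replicate block gave 526 genes against 767 for genotype in refed liver, 1991 against 2382 for feeding in Lpin1-/-, and 1813 against 2168 for genotype in fasted liver. It lost the Fst call in fasted liver and changed no other call of a member. Same-numbered libraries correlated at −0.441 to −0.204 for feeding in Lpin1-/-, −0.474 to −0.226 for genotype in fasted liver, and −0.016 to 0.251 for feeding in Lpin1+/+. No paired analysis was run for the exon events, whose lists carry no replicate numbers. Acvr1c, Inha, and Fstl3 were not tested because their means were under the filter.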
